A study of Mus musculus with 8 samples.

Results

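Circadian clock genes were described on 8 oligonucleotide arrays of dorsal skin, taken from hairless Hos:HR-1 mice, all female. The 10 genes were *Clock*, *Per1*, *Per2*, *Per3*, *Cry1*, *Cry2*, *Nr1d1*, *Nr1d2*, *Dbp* and *Tef*, out of 18193 genes with a probe set that names a single symbol. They were chosen by symbol, and each was read from its probe set with the highest mean over the 8 arrays, with the other 14 probe sets of these genes as a check. Of the study's 16 mice, 8 per diet, the arrays cover 4 that ate the control diet AIN93G for 12 weeks and 4 that ate the same diet with 2 g of fish-scale collagen hydrolysate for each 100 g of it. All were 21 weeks old at sampling, and the labels call the arrays of a diet biological replicates. All 10 genes lay above the filter on low levels, which left out the lowest 30% of genes and kept 12735. The lowest mean among them was 6.85 for *Per2*, against 6.68 at the filter.

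The clock of mammalian cells is a loop of transcription and repression. CLOCK and BMAL1 (encoded by *Arntl*) bind E-box sequences and switch on the *Per* and *Cry* genes, whose proteins return to block them. The nuclear receptors REV-ERB alpha and beta (*Nr1d1*, *Nr1d2*) repress *Arntl*, so that *Arntl* messenger RNA peaks at the opposite time of day to that of *Nr1d1*, *Dbp* and their like, and the transcription factors DBP and TEF carry the rhythm to genes with D-box sequences. Skin cells hold such a clock, and arrays from mice killed at different clock times would differ in its phase. For the clock time at which each mouse was sampled, the sources used here give no value.

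Whether promoter motifs have a part in how these genes varied over the arrays was not tested. The promoter windows below hold letters that the clock's own factors are known to bind. They come from RefSeq on GRCm38.p6, read 5′ to 3′ on the gene's strand, with the motif in capitals and only bases before the transcription start searched, 250 for each start. An entry was found for 9 of the 10 genes, with 13 starts. Motifs were searched on both strands. The E-box was CACGTG. The related type was CACGTT, which on the opposite strand reads as AACGTG. The D-box was TTANGTAA.
Per3, D-boxes, chr4:151044801-151044885, minus strand: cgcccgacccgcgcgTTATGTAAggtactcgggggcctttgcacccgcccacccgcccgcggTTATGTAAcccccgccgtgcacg
Tef, first start, E-box, chr15:81802531-81802566, plus strand: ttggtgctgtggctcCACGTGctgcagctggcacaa
Tef, second start, E-box, chr15:81811261-81811296, plus strand: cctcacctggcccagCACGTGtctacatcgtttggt
Cry1, CACGTT type and E-box, chr10:85185094-85185148, minus strand: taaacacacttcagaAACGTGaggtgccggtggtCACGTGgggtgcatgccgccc
Per1, E-box, chr11:69098768-69098803, plus strand: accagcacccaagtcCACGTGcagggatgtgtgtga
Nr1d1, CACGTT type, chr11:98775385-98775420, minus strand: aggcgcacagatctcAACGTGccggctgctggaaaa
The *Per3* window held 2 D-boxes, beginning 205 and 158 bases before the start, and no E-box. Of all 32851 promoters of the same length 2.06% held a D-box and 0.0731% held 2 or more. E-boxes stood in windows of 3 of the genes, *Cry1*, *Per1* and *Tef*, against 6.02% of all promoters, and the CACGTT type in those of 3, *Cry1*, *Cry2* and *Nr1d1*, against 3.85%. The ROR half-site AGGTCA, the letters shared by ROR and REV-ERB receptors, stood in windows of *Clock*, *Nr1d2* and *Per1*, against 14.0% of all promoters. A gene with several starts had several windows and so more chances to hold a motif. None of these 4 motifs stood in the window of *Dbp*, which says only that these letters are not within those 250 bases.

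The deposited log2 values differed very little between arrays, so each gene is given as its deviation from its own mean over the 8 arrays, in units of its pooled within-diet standard deviation (SD). Values lay between 5.34 and 14.27, and the median SD of a tested gene over the 8 arrays was 1.99e-05. Their scaling is unknown here, and a difference is therefore no fold change of RNA. *Dbp* and *Per1* stood out by their spread, with SDs of 0.00550 and 0.00358, larger than those of 98.6% and 98.2% of tested genes. *Per3* had an SD of 2.71e-04, above 92.2% of genes. The SDs of *Cry1* (1.08e-04), *Nr1d2* (9.75e-05) and *Tef* (9.13e-05) lay above those of 82.1% to 84.3% of genes. *Nr1d1* (6.36e-05), *Cry2* (2.36e-05) and *Per2* (1.80e-05) followed. *Clock*, whose messenger RNA is known to cycle little in most tissues, had the smallest at 1.27e-05. Both *Per2* and *Clock* lay below the median gene. Another probe set of *Clock*, with a mean of 8.27 against 8.28, had an SD of 2.60e-05, above the median gene. The place of *Clock* in this order thus depends on the probe set. Whole skin was profiled, so fewer cells of a type and less RNA per cell cannot be told apart.

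Among the output factors, *Dbp*, the D-box activator that is a direct E-box target, had deposited values of 8.872, 8.884, 8.878 and 8.870 in control replicates 1 to 4 and 8.876, 8.872, 8.881 and 8.884 in collagen replicates 1 to 4. In SD units these were -0.80, 1.17, 0.11 and -1.24 on the control diet and -0.21, -0.91, 0.71 and 1.17 on the collagen diet. Control replicate 2 and collagen replicates 3 and 4 were thus high, control replicates 1 and 4 and collagen replicate 2 low, and the diets overlapped over most of their range. *Tef*, its close relative, stood at -1.56, 1.31, 0.10 and -1.09 SD on the control diet and at 0.50, -0.55, 0.57 and 0.73 SD on the collagen diet. The same arrays were low as for *Dbp*, and control replicate 2 was again the highest.

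The receptor *Nr1d2* stood at -1.04, 1.16, -0.37 and -2.06 SD in control replicates 1 to 4 and at 0.40, 0.11, 0.73 and 1.07 SD in collagen replicates 1 to 4. Control replicate 4 was lowest and control replicate 2 highest, so the control arrays enclosed the collagen arrays. *Nr1d1*, the other REV-ERB, stood at -0.28, 1.73, 0.25 and -0.43 SD on the control diet and at -0.35, -1.61, 0.86 and -0.16 SD on the collagen diet. It shared its highest array with *Dbp*, *Tef* and *Nr1d2*, but its lowest was collagen replicate 2.

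Among the repressors, *Per3* stood at -1.86, 0.29, -0.08 and -1.61 SD on the control diet and at 1.30, -0.52, 0.96 and 1.52 SD on the collagen diet. *Per2*, a core repressor, stood at -2.42, 0.66, -0.75 and -0.10 SD on the control diet and at 1.41, 0.18, 0.44 and 0.57 SD on the collagen diet. Control replicate 1 was the lowest array for both. In *Per3* 3 of the 4 collagen arrays lay above all control arrays. *Per1*, which also responds quickly to glucocorticoids and to cell stimulation, stood at -1.09, -1.0, -0.36 and 1.66 SD on the control diet and at 0.33, 0.81, -0.64 and 0.28 SD on the collagen diet. *Cry1*, the late-peaking repressor of the loop, stood at -0.29, -1.43, -0.80 and 1.44 SD on the control diet and at 0.08, 0.80, -0.64 and 0.84 SD on the collagen diet. Control replicate 4, lowest or near lowest for *Dbp*, *Nr1d2* and *Per3*, was the highest array for both *Per1* and *Cry1*. *Cry2* stood at -0.68, 1.86, -0.78 and -0.35 SD on the control diet and at -0.59, -0.31, 0.96 and -0.10 SD on the collagen diet, with control replicate 2 far above the rest of its diet.

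On the activator side, *Clock* stood at -0.32, -1.49, -0.24 and 0.73 SD on the control diet and at -0.78, 0.37, 1.79 and -0.06 SD on the collagen diet. *Arntl*, its partner, stood at -0.15, -0.83, 0.38 and 1.49 SD on the control diet and at 0.41, 0.86, -0.86 and -1.29 SD on the collagen diet. The arrays high in *Dbp* were the 3 lowest in *Arntl*, and control replicate 4, lowest in *Dbp*, was highest in *Arntl*. The plot of all values by array shows that the order of the arrays differed between the genes.

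**Figure D1:**
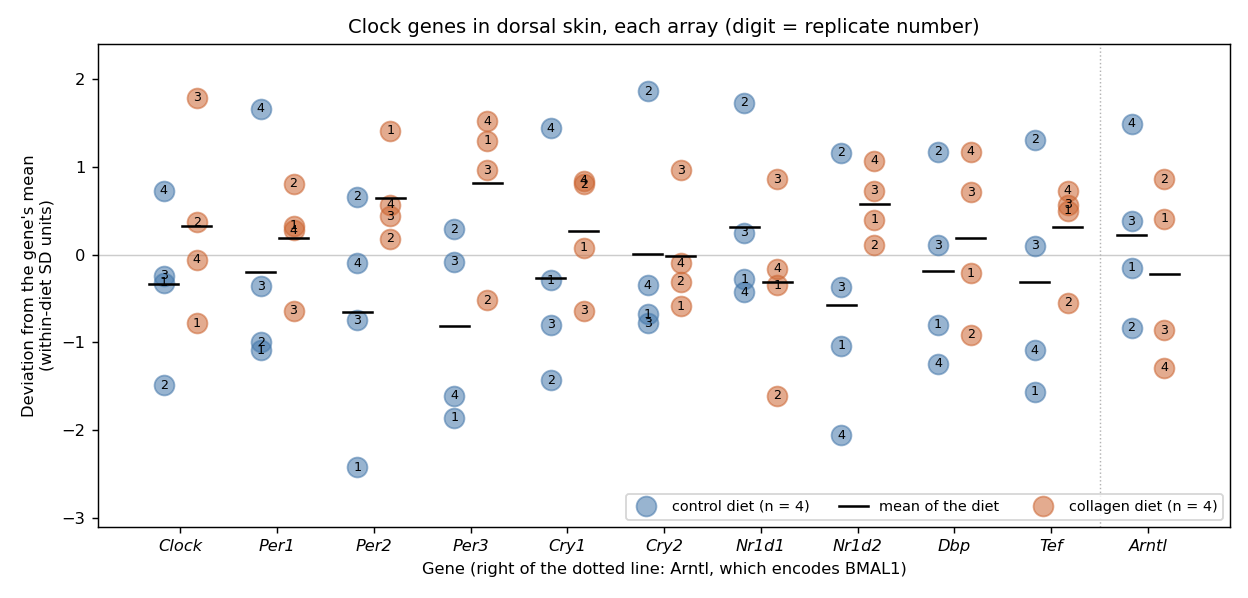
Each point is 1 array (digit: replicate number) of the control (blue) or collagen diet (orange), placed at its deviation from the gene's mean over the 8 arrays in within-diet SD units, and the black bar is the mean of the diet. Control replicate 4 is the highest array for Per1 (1.66), Cry1 (1.44) and Arntl (1.49) and the lowest for Nr1d2 (-2.06) and Dbp (-1.24).

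The largest correlations lay in a group made of *Dbp*, *Tef*, *Nr1d2* and *Per3*, and apart from it in the pair *Per1* and *Cry1*. Over the 8 arrays the 6 pairs within the group of 4 had Pearson r between 0.76 and 0.89. The group was drawn from these same values and has no clear edge. Outside it *Cry1* with *Nr1d1* had r = -0.78, and *Per2* with *Per3* and *Cry2* with *Nr1d1* had 0.77 each. *Per2* with *Tef* had 0.74, and *Nr1d1* with *Dbp* 0.73 (rho = 0.88). Of the 45 pairs of the 10 genes, 6 had an r of at least 0.8 in size, which is 13.3%, against 2.41% of all pairs of tested genes. All 6 were positive, as were 1.35% of all pairs, with 1.06% negative at that size. These pairs share genes and are not independent of each other. The values are for the deposited scale, and 21 of the 45 pairs had the other sign after quantile normalization, as did 21 after median centring. No pair passed an exact two-sided permutation test over the pairings of the arrays after adjustment over the 45 pairs: 12 had an unadjusted p below 0.05, and the 6 strongest had an adjusted p of 0.0554 each. Whether the arrays fall into separate clusters was not tested, and r is given over both diets together and then within diets.

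*Dbp* and *Tef* had r = 0.89 (exact permutation p = 0.00456) and Spearman rho = 0.90 (exact permutation p = 0.00456). Without the 2 arrays farthest from the median of *Dbp* r was 0.82, and as deviations from each diet's mean it was 0.89. *Nr1d2* and *Tef* had r = 0.87 (exact permutation p = 0.00451) and rho = 0.95 (exact permutation p = 0.00114), with r = 0.78 without the 2 farthest arrays and 0.88 within diets. *Nr1d2* and *Dbp* had r = 0.85 (exact permutation p = 0.00580) and rho = 0.88 (exact permutation p = 0.00724), with 0.76 without the 2 farthest arrays and 0.90 within diets. The sign depended on the scaling of the arrays: *Dbp* with *Tef* was -0.74 after quantile normalization and -0.05 after median centring, and *Nr1d2* with *Dbp* was -0.08 and -0.05, while *Nr1d2* with *Tef* stayed positive at 0.51 and 0.95. The medians of the arrays span 3.69e-04, more than the SD of 8 of the 10 genes, all but *Dbp* and *Per1*, so taking off the median puts that shift into the smaller genes. After centring 6 of the 10 correlated at 0.8 or more with the shift that centring added, which runs opposite to the array medians. As deposited, r with that shift ran from -0.62 for *Dbp* to 0.70 for *Per1*, with *Clock* at -0.04, and was 0.76 for *Arntl*.

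*Per3* had r = 0.87 with *Tef* (exact permutation p = 0.00687, rho = 0.83 with exact permutation p = 0.0154). With *Nr1d2* it had 0.85 (exact permutation p = 0.00739, rho = 0.79 with exact permutation p = 0.0279). Its r with *Dbp* was 0.76 (exact permutation p = 0.0333, adjusted p = 0.131, rho = 0.69 with exact permutation p = 0.0694). Without the 2 arrays farthest from the median of *Per3* these were 0.56, 0.57 and 0.53, so the relations of *Per3* rest on those arrays. Within diets they were 0.93, 0.77 and 0.87. They were smaller under other scalings: after quantile normalization 0.15, 0.66 and 0.21, and after median centring 0.77, 0.84 and 0.42. With the mean of all probe sets of each gene *Per3* had 0.59 with *Tef*. *Per2* had r = 0.77 with *Per3* (exact permutation p = 0.0155, adjusted p = 0.0996, rho = 0.81 with exact permutation p = 0.0218), and 0.52 without the 2 farthest arrays, but only 0.42 with *Dbp* (exact permutation p = 0.311).

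*Per1* and *Cry1* had r = 0.89 (exact permutation p = 0.00392, adjusted p = 0.0554) and rho = 0.76 (exact permutation p = 0.0368), with 0.93 without the 2 farthest arrays and 0.88 within diets. It was 0.64 after quantile normalization and 0.90 after median centring. Both ran against *Nr1d1* as deposited but with it under other scalings: *Cry1* with *Nr1d1* was 0.81 after quantile normalization and 0.70 after median centring, and *Per1* with *Nr1d1* 0.33 and 0.50. As deposited, *Cry1* with *Nr1d1* gave r = -0.78 (exact permutation p = 0.0212, adjusted p = 0.118) and rho = -0.79 (exact permutation p = 0.0279), and -0.74 without the 2 farthest arrays. *Per1* with *Nr1d1* gave r = -0.65 (exact permutation p = 0.0843, adjusted p = 0.253) and rho = -0.74 (exact permutation p = 0.0458), and -0.97 without the 2 farthest arrays. *Per1* and *Per3*, both PERIOD genes, had r = -0.13 (exact permutation p = 0.767, rho = 0.05 with exact permutation p = 0.935). *Clock* had r between -0.28 and 0.37 with the other 9 genes.

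**Figure D2:**
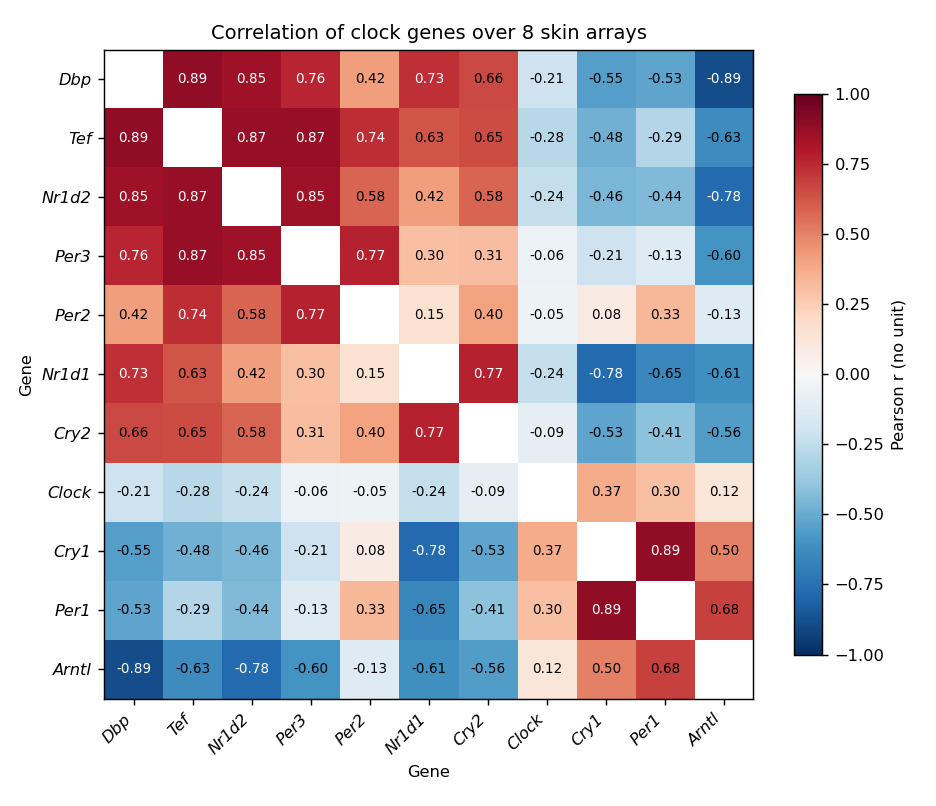
Each cell gives Pearson r between 2 genes over the 8 arrays (colour scale from -1, blue, to 1, red). Dbp, Tef, Nr1d2 and Per3 form a red block with r from 0.76 to 0.89, Per1 and Cry1 a second red cell at 0.89, and Arntl is blue against Dbp (-0.89) and Nr1d2 (-0.78). All are on the deposited scale: after quantile normalization Dbp with Tef is -0.74 and Nr1d2 with Arntl 0.81.

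Against the activator *Arntl*, 7 of the 10 genes had a negative and 3 a positive r as deposited, but 1 a negative and 9 a positive r both after quantile normalization and after median centring. The 1 that stayed negative was *Dbp*. After centring *Arntl* had r = 0.99 and *Dbp* r = -0.61 with the shift that centring added. The kept sign can therefore not be read as a relation that survived the scaling. *Dbp* had the strongest, with r = -0.89 (exact permutation p = 0.00563, adjusted p = 0.113 over the 20 relations with *Arntl* and *Npas2*) and rho = -0.86 (exact permutation p = 0.0107). It was -0.79 without the 2 arrays farthest from the median of *Dbp*, -0.88 within diets and -0.85 without control replicate 4, but -0.37 after quantile normalization and -0.69 after median centring. Of 12734 other tested genes, *Arntl* ranked 13 from the lowest in its r with *Dbp*, and *Tef* ranked 31 from the highest. *Nr1d2* had r = -0.78 with *Arntl* (exact permutation p = 0.0228, adjusted p = 0.228, rho = -0.71 with exact permutation p = 0.0576) and -0.84 without the 2 farthest arrays, and this turned to 0.81 after quantile normalization and 0.68 after median centring. As deposited, *Tef*, *Nr1d1*, *Per3* and *Cry2* had r of -0.63, -0.61, -0.60 and -0.56, while *Per1* had 0.68 and *Cry1* 0.50, each with an adjusted p of 0.346 or more. Without control replicate 4 the last 2 were 0.43 and 0.20. *Npas2*, which can stand in for *Clock*, lay below the filter at a mean of 6.42. Its r with *Dbp* was -0.61 (exact permutation p = 0.0692), and none of the 20 relations passed the adjusted test, with 2 at an unadjusted p below 0.05.

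**Figure D3:**
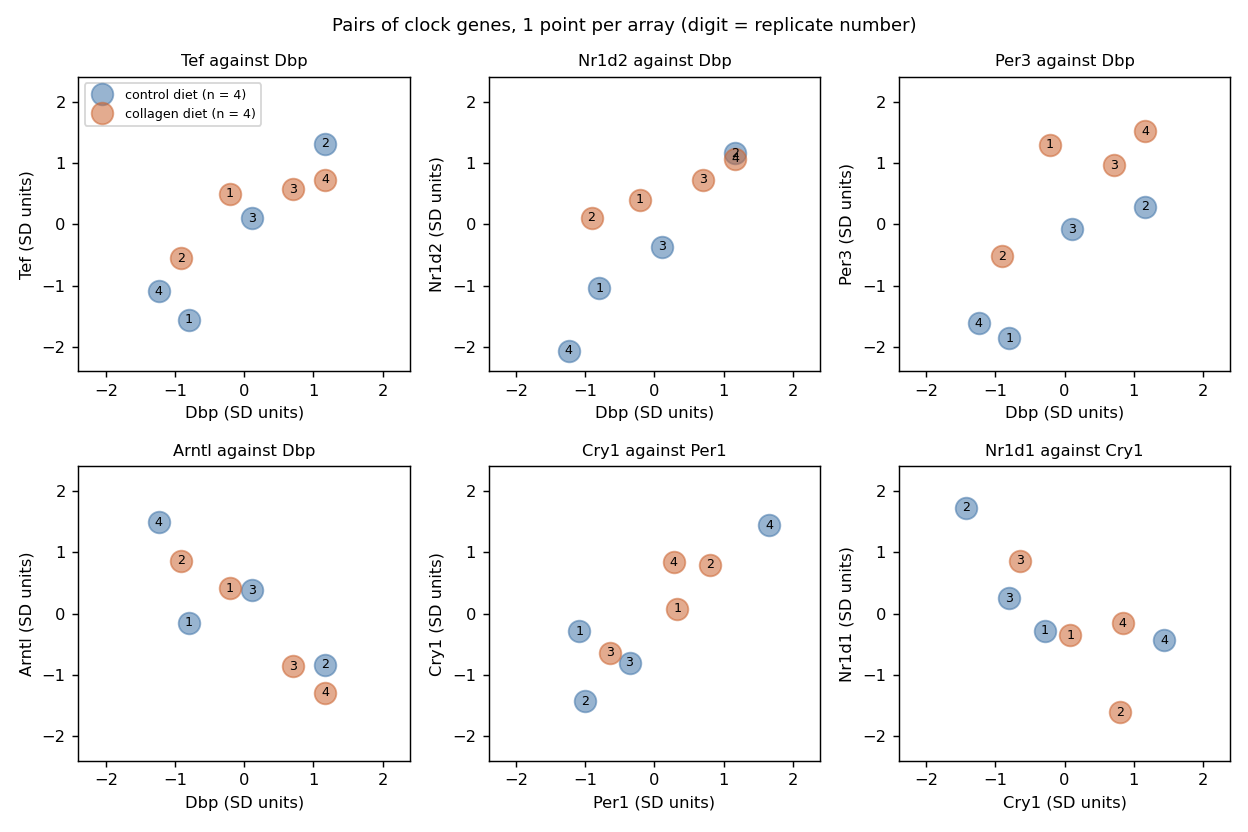
Each panel sets 1 clock gene against another, both as deviations in within-diet SD units, with 1 point per array (blue: control diet, orange: collagen diet, digit: replicate number). Tef, Nr1d2 and Per3 lie along a rising line with Dbp (r = 0.89, 0.85 and 0.76), Arntl and Dbp along a falling one (-0.89), Cry1 rises with Per1 (0.89) and Nr1d1 falls with Cry1 (-0.78). All are on the deposited scale: after quantile normalization Tef with Dbp is -0.74, Nr1d2 with Dbp -0.08 and Nr1d1 with Cry1 0.81.

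Other probe sets gave a partly different picture of single genes. The second probe set of *Dbp* followed the first closely (r = 0.98, exact permutation p = 1.98e-04, adjusted p = 0.00298 over 15 relations, rho = 0.95 with exact permutation p = 0.00114), and r was 0.97 without the 2 farthest arrays. For *Per3*, 3 of the 5 further probe sets had r of 0.88, 0.91 and 0.88 with the one used, each with an adjusted p of 0.0170 in the exact permutation test, and r of 0.88, 0.81 and 0.90 with *Dbp*. Without the 2 arrays farthest from the median of *Per3*, these 3 had r of 0.54, 0.69 and 0.66 with the one used. The other 2 gave 0.57 and -0.28, and 0.24 and -0.70 with *Dbp*. The further probe sets of *Tef* gave 0.36 and 0.26, that of *Nr1d2* 0.09, those of *Per2* 0.57 and -0.33 and those of *Clock* 0.68, 0.18 and -0.37, none passing. With *Dbp*, those of *Tef* had r of 0.49 and 0.05 and that of *Nr1d2* -0.08, so the relations of these 2 genes with *Dbp* were not seen at that size in their other probe sets. The second probe set of *Arntl* had r = 0.58 with the one used (exact permutation p = 0.141, adjusted p = 0.278). This was 0.11 without the 2 farthest arrays, and r with *Dbp* was -0.70. *Per1*, *Cry1*, *Cry2* and *Nr1d1* have 1 probe set each, so their relations have no such check.

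Some other genes of the clock followed *Dbp* and most did not. Of 31 further clock and clock output genes tested, 14 had a positive and 17 a negative r with *Dbp*, 3 had an unadjusted p below 0.05 in the exact permutation test and 0 passed after adjustment over the 31. Beside *Arntl* these were *Wee1* and *Nampt*. *Wee1*, the mitotic inhibitor kinase known as an E-box target in liver, ran against *Dbp* (r = -0.86, exact permutation p = 0.0101, adjusted p = 0.156, rho = -0.83 with exact permutation p = 0.0154, and r = -0.92 without the 2 farthest arrays). It stood at 1.41, -1.14, -0.48 and 0.78 SD on the control diet and at -0.09, 0.87, -1.10 and -0.26 SD on the collagen diet. *Nampt*, the NAD salvage enzyme and a CLOCK target, ran with *Dbp* (r = 0.80, exact permutation p = 0.0219, adjusted p = 0.226, rho = 0.81 with exact permutation p = 0.0218, and 0.70 without the 2 farthest arrays), but at -0.43 after quantile normalization and -0.24 after median centring. *Wee1* kept its sign, at -0.66 and -0.77. Under both scalings, however, every other of the 31 genes with a value was negative too, except *Pdk4* (0.52 and 0.59). A kept negative sign therefore does not set *Wee1* apart. As deposited, the repressor *Ciart* had r = 0.65, the PAR bZIP factor *Hlf* 0.34, the receptor *Rora* 0.47, the D-box repressor *Nfil3* -0.36 and the E-box repressor *Bhlhe40* -0.15, with exact permutation p of 0.0509 to 0.718, and all 5 had a negative r under both other scalings. *Bhlhe40* ranked 8 among all genes in its r with *Clock*, at 0.89. *Por* was not analysed here, and *Bhlhe41* lay below the filter.

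Genes outside the clock lists lay closest to these genes over the 8 arrays. The 5 highest in r with *Dbp* were *Tmx4* (0.958), *Hacd4* (0.946), *Primpol* (0.939), *Sytl2* (0.937) and *Acad8* (0.933), and the 3 lowest were *Nrp* (-0.942), *Vmn1r44* (-0.932) and *Trmt44* (-0.929). For *Per2* the highest were *Tesk2* (0.935), *Pax3* (0.934), *Syt11* (0.926), *Ptpra* (0.924) and *Zcchc12* (0.922) and the lowest *Gmppb* (-0.926), *Arih2* (-0.911) and *Gsk3a* (-0.908). For *Clock* they were *H2bc22* (0.953), *Zfp787* (0.952), *Igfbp2* (0.926), *Ipo4* (0.905) and *Nt5m* (0.90) against *Bbip1* (-0.985), *Nsmce2* (-0.972) and *Zranb1* (-0.967). These were selected as the extremes of 12734 genes, and r of at least 0.9 in size with *Dbp* was reached by 0.228% of genes and with *Clock* by 0.220%.

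Scores of other features of the arrays were set against *Dbp*, *Per1* and *Arntl*, and their part in the relations was not tested. Of 51 relations with 17 scores, 4 had an unadjusted p below 0.05 in the exact permutation test and 0 passed after adjustment. Those 4 are among the relations given here. Skeletal muscle markers (13 of 13 tested) were low on 2 arrays, with a mean score of -1.37 for control replicate 4 and -1.35 for collagen replicate 1, while the remaining 6 arrays scored 0.19 to 0.88. The score had r = 0.61 with *Dbp* (exact permutation p = 0.123, adjusted p = 0.459 over 51 relations, rho = 0.83 with exact permutation p = 0.0154, and 0.53 without the 2 farthest arrays). With *Arntl* it had r = -0.75 (exact permutation p = 0.0270, adjusted p = 0.344, rho = -0.93 with exact permutation p = 0.00223, and -0.49 without the 2 farthest arrays). Without the 2 arrays low in muscle genes r was 0.92 for *Dbp* with *Tef*, 0.84 for *Nr1d2* with *Dbp*, 0.91 for *Nr1d2* with *Tef*, -0.84 for *Dbp* with *Arntl* and 0.83 for *Per1* with *Cry1*. Immediate early genes (13 of 14 tested) had their highest score in control replicate 4, at 1.71 against -0.64 to 0.57 elsewhere, and r = 0.81 with *Arntl* (exact permutation p = 0.00362, adjusted p = 0.185, rho = 0.93 with exact permutation p = 0.00223, and 0.59 without the 2 farthest arrays). Glucocorticoid response genes (12 of 12 tested) were highest in the same array, at 1.12, and had r = 0.79 with *Per1* (exact permutation p = 0.0197, adjusted p = 0.344, rho = 0.71 with exact permutation p = 0.0576, and 0.53 without the 2 farthest arrays). Sebaceous gland markers (4 of 6 tested) had a score that ran against *Per1* with r = -0.80 (exact permutation p = 0.0220, adjusted p = 0.344, rho = -0.74 with exact permutation p = 0.0458, and -0.61 without the 2 farthest arrays). Keratinocyte markers, all 9 of which were above the filter, had r = -0.03 with *Dbp* (exact permutation p = 0.946).

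None of the 10 clock genes differed between the diets past the adjusted threshold. The question is how feeding collagen hydrolysate alters gene expression in skin. In limma's fit over 12735 genes 0 had an adjusted p below 0.05, a share of 0%, and 5.36% had an unadjusted p below 0.05 (1.21% higher and 4.15% lower on the collagen diet). Among the 10 clock genes 1 had an unadjusted p below 0.05, a higher one, and 0 had groups that did not overlap, against 3.31% of all genes. The mean was higher on the collagen diet in 8 of the 10 and lower in 2, against 45.5% and 54.5% of all genes, and the median difference, collagen minus control diet, was 0.58 SD against -0.08 SD over all genes. As several of the 10 genes vary together, they are not 10 separate pieces of evidence. The score of the hair follicle markers did not overlap between the diets: 8 of 8 had a higher mean on the collagen diet, with a median of 2.01 SD and 0 past the adjusted threshold, and the score was -1.82 to -0.01 on the control and 0.12 to 1.80 on the collagen diet. Cell cycle genes lay the other way, with a median of -1.83 SD. The part of either in the clock genes' values was not tested. With an exact test, 4 arrays against 4 cannot give a p below 0.0286.

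*Per3* had the largest difference, 1.63 SD with a 95% interval of 0.02 to 3.24. In limma's fit across all genes its unadjusted p was 0.0480 and its adjusted p = 0.930. It was 0.79 SD after quantile normalization (unadjusted p = 0.278 in limma) and 1.23 SD with the mean of all probe sets, where *Per2* had the larger difference at 2.11 SD. With the replicate number as a block the log2 difference stays the same by design. In units of that fit's residual SD it was 1.21 (unadjusted p = 0.141 in limma). On leaving out single arrays the *Per3* difference was 1.35 to 2.43 SD, in the SD of the remaining arrays. On the deposited log2 scale the difference was 3.48e-04 ± 1.44e-04 (SE, n = 4 per diet). A collagen array lay above a control array in 14 of the 16 possible pairs, and the 5 further probe sets of the gene differed by 0.44 to 1.17 SD. *Per2* differed by 1.30 SD (-0.32 to 2.92, adjusted p = 0.999 in limma) and *Nr1d2* by 1.15 SD (-0.46 to 2.77, adjusted p = 0.999). Quantile normalization turned *Per2* to -0.22 SD and *Nr1d2* to -0.52 SD. On leaving out single arrays *Per2* ranged from 1.03 to 2.02 SD and *Nr1d2* from 0.84 to 2.76 SD, both highest without control replicate 2, with adjusted p of 0.965 and 0.890 in limma. A second probe set of *Per2* had all 4 collagen arrays above all 4 control arrays, at 2.89 SD with an unadjusted p of 0.00430 and an adjusted p of 0.536 over 25354 probe sets in limma, of which 3.66% had groups that did not overlap and 6.01% an unadjusted p below 0.05, while the third probe set, below the filter, differed by -0.89 SD.

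The remaining differences were below 1 SD over all 8 arrays. *Clock* differed by 0.66 SD (-1.01 to 2.32), *Tef* by 0.62 SD (-1.0 to 2.23), *Cry1* by 0.54 SD (-1.07 to 2.15), *Per1* by 0.39 SD (-1.22 to 2.00) and *Dbp* by 0.38 SD (-1.23 to 1.99), with an adjusted p of 0.999 each in limma. *Nr1d1* differed by -0.63 SD (-2.25 to 0.98) and *Cry2* by -0.02 SD (-1.65 to 1.60), with the same adjusted p. *Arntl* differed by -0.44 SD (-2.06 to 1.17). Median centring turned *Clock* to -0.05 SD, and *Tef* was -0.34 SD both after quantile normalization and with the mean of all probe sets. Leaving out single arrays moved several of these values past 1 SD, where the SD is that of the remaining arrays. Such a value can rise because the SD became smaller as well as because the means moved apart. Without control replicate 4 *Per1* was 1.90 SD (adjusted p = 0.871 in limma), *Cry1* 1.71 SD and *Clock* 1.06 SD, and without control replicate 2 *Tef* was 1.64 SD and *Cry2* 1.09 SD. The intervals are wide: those of *Dbp* and *Per1* take in a difference of more than 1 SD in either direction. Of the 14 further probe sets of these genes 12 had the sign of the one used. Of the 11 above the filter, which alone were tested, 1 had an unadjusted p below 0.05 in limma, against 6.01% of all 25354 probe sets.

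**Figure D4:**
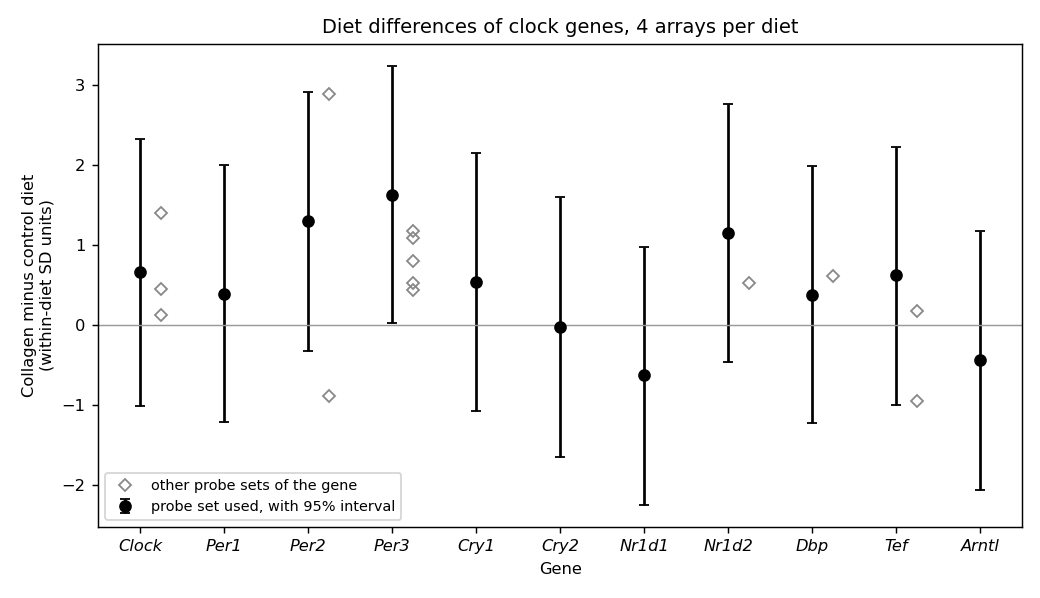
Black points give the difference between the diets (collagen minus control, in within-diet SD units, 4 arrays per diet) with its 95% interval from limma for the probe set used, and grey diamonds the other probe sets of the same gene. Of the intervals shown, that of Per3 alone lies above 0 (0.02 to 3.24), before adjustment over all genes.

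The control arrays differed among themselves more than the collagen arrays in most of these genes. The SD of the 4 control arrays was the larger in 8 of the 10, against 48.6% of all tested genes, and several of these 8 too vary together. In *Nr1d2* it was 1.35 on the control and 0.41 on the collagen diet, in *Per2* 1.31 and 0.53, in *Tef* 1.29 and 0.58 and in *Per1* 1.28 and 0.60, all in pooled within-diet SD units. The exceptions were *Clock* (0.91 and 1.08) and *Nr1d1* (0.98 and 1.02). The difference in spread was not tested.

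Other clock genes had no difference between the diets that passed. Of 31 genes in this list 24 were tested, with 15 higher and 9 lower means, a median of 0.24 SD and 0 past the adjusted threshold. The 1 of the 24 with an unadjusted p below 0.05 was *Hdac3*, the deacetylase that works with REV-ERB, at -2.37 SD (adjusted p = 0.779 in limma). Its collagen arrays all lay below its control arrays. Over all tested genes 5.36% had an unadjusted p below 0.05 in limma and 3.31% had groups that did not overlap. *Csnk1e*, a kinase of PERIOD proteins, differed by -1.19 SD, *Nfil3* by -1.13 SD, *Hlf* by 1.04 SD, *Nono* by 1.01 SD, *Bhlhe40* by 0.73 SD, *Rora* by 0.32 SD and *Ciart* by 0.11 SD, none passing. Of the 10 clock output genes 9 were tested, with 5 higher and 4 lower means and a median of 0.11 SD. Their smallest p belonged to *Cdkn1a*, the cell cycle inhibitor p21, at -2.76 SD (unadjusted p = 0.00526, adjusted p = 0.668 in limma), followed by *Lonrf3* at -1.19 SD.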

How the data were processed

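RNA from dorsal skin (200 ng per sample) was labelled and hybridised to 3' expression arrays, per the labels' protocols. The authors deposited log2 values for 45101 probe sets on 8 arrays. R 2.7.2 is listed in the submitters' processing notes. How probes were summarized and arrays normalized is not stated in what was used here. Values were used as deposited. Probe sets with exactly 1 symbol (34945) were kept, 932 with several and 9160 with none were left out, and the probe set with the highest mean stood for a gene. The diets were compared in limma 3.58.1 under R 4.3.3 (eBayes with trend, Benjamini-Hochberg adjustment over 12735 genes, threshold 0.05), with all 8 arrays. Intervals are limma's, divided by the pooled within-diet SD. In each alternative fit the difference was divided by that fit's own residual SD, which changes between fits. Relations were tested by exact two-sided permutation of the 8 arrays. Marker and pathway scores are the mean of the listed genes' deviations. Named were the 10 clock genes, *Arntl*, *Npas2*, *Rora*, *Bhlhe40*, *Bhlhe41*, *Nfil3*, *Hlf* and *Ciart*, the 3 genes of each further list with the smallest p for diet, and for *Dbp*, *Per2* and *Clock* the 5 genes of highest and 3 of lowest r. *Wee1* and *Nampt* were named after their values were seen, and the check without the 2 arrays low in muscle genes was added then too. The members and lists were chosen with earlier results of these data known. The labels do not say that replicate numbers pair mice, so the main fit did not use them as pairs. Same-numbered deviations correlated at 0.00, -0.02, 0.18 and -0.07, which cannot exclude a pairing. The tests were tested on simulated data. Arrays limit precision by their number, 4 per diet. Alternatives were other normalizations, filters, probe set choices, array weights and leaving out arrays.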

Additional observations from a re-analysis of the deposited data

Results flagged for a closer look

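*Cry2* in control replicate 2 stood at 1.86 SD, far above the other control arrays, which lay between -0.78 and -0.35 SD. The gap to the nearest of them was 0.84 of the range of the group, above Dixon's critical value for a group of 4 arrays. Of 22 groups examined this was the 1 past that value, and chance alone marks about 5% of groups. *Cry2* with *Nr1d1* had r = 0.77 (exact permutation p = 0.0236, adjusted p = 0.118, rho = 0.40), which was 0.47 to 0.91 on leaving out single arrays and -0.42 without the 2 arrays farthest from the median of *Cry2*.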

How the results depend on the processing

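No clock gene passed the adjusted diet test under any alternative run. Over all genes the count of 0 became 1 with the lowest 50% left out, 1 under quantile normalization and 1 at an adjusted p below 0.10, and was 0 to 1 leaving out single arrays (1 without control replicate 1). With the replicate number as a block 0 genes passed, none of them clock genes. Diet differences turned in sign for *Clock* under median centring (-0.05 SD), for *Per2* (-0.22), *Nr1d2* (-0.52) and *Tef* (-0.34) under quantile normalization, for *Tef* with the mean of all probe sets (-0.34), and for *Cry2* with array weights (0.18), without the 2 arrays low in muscle genes (0.04, an alternative chosen after seeing the data) and on leaving out single arrays (-0.35 to 1.09). Pairs of clock genes past the adjusted test went from 0 to 17 under median centring, which adds a shared shift to the genes, and were 0 to 1 on leaving out single arrays, where *Per3* with *Tef* passed at 0.98 without control replicate 2. Relations with *Arntl* and *Npas2* went from 0 to 3 under quantile normalization and 14 under median centring, and were 0 to 3 on leaving out single arrays (3 without control replicate 1, *Dbp* with *Arntl* at -0.97, against -0.37 under quantile normalization and -0.69 under median centring). The r of *Dbp* with *Tef* turned to -0.74 (quantile) and -0.05 (centring), and that of *Nr1d2* with *Dbp* to -0.08 and -0.05. The cause of the changes under quantile normalization was not tested.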

Other observations

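Gene groups known to set or to follow the clock showed no difference between the diets past the adjusted threshold. Over all tested genes, 1.21% were higher and 4.15% lower on the collagen diet at an unadjusted p below 0.05 in limma. Groups did not overlap in 3.31% of all tested genes. Of the 12 glucocorticoid response genes tested, 9 had a higher and 3 a lower mean on the collagen diet, with a median of 0.13 SD. The 1 with an unadjusted p below 0.05 was *Fkbp5*, the glucocorticoid-induced chaperone partner, at -1.96 SD (adjusted p = 0.872 in limma). *Zbtb16* differed by -1.21 SD and *Tsc22d3*, which encodes GILZ, by 0.73 SD. Of 13 immediate early genes 12 had a lower mean, with a median of -0.41 SD, and *Btg2* had the smallest p at -1.74 SD (unadjusted p = 0.0382, adjusted p = 0.914 in limma). *Ier2* differed by -1.53 SD and *Jun* by -1.42 SD, and control replicate 4 had the highest score of this list. Of 8 temperature response genes 3 had higher and 5 lower means, with *Hspa8*, a constitutive chaperone, at 2.69 SD and its groups not overlapping (adjusted p = 0.999 in limma), *Hsph1* at 0.99 SD and *Cirbp*, the cold-inducible RNA-binding protein, at -0.91 SD. Cell cycle genes, which are gated by the clock in skin, had 16 lower and 2 higher means of 18, with 11 at an unadjusted p below 0.05 and 0 past the adjusted threshold. *Plk1*, the mitotic kinase, stood lowest at -9.83 SD (adjusted p = 0.0510 in limma), before *Cdc20* at -4.00 SD and *Cdk1* at -3.38 SD. Hair follicle markers differed in the opposite direction, with 8 of 8 means higher on the collagen diet, 5 at an unadjusted p below 0.05, 5 with groups that did not overlap and 0 past the adjusted threshold. *Krt25*, a keratin of the inner root sheath, differed by 3.07 SD (adjusted p = 0.606 in limma), *Krt73* by 2.64 SD and *Krtap8-1* by 2.12 SD. The cell cycle score was 0.54 to 1.58 on the control and -2.04 to -0.52 on the collagen diet, and its r with *Dbp* was -0.28 (exact permutation p = 0.483, adjusted p = 0.871, rho = -0.12 with exact permutation p = 0.793, and -0.46 without the 2 farthest arrays).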
